A study of Mus musculus with 6 samples.

Results

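A mature B cell makes its antibody from a pair of heavy chains and a pair of light chains, so a complete single-cell record of its receptor holds both. The cells described here are B cells in which a light chain was read and no heavy chain was accepted. They numbered 1949 of 10340 B cells, 327 of 3827 in a 564Igi mouse and 1622 of 6513 in a wild-type (WT) mouse. They were chosen by receptor contigs, the transcript sequences assembled from the reads of 1 cell. Barcodes counted as B cells where the deposited call marked a cell in the B cell receptor table and none in the T cell receptor table of that mouse. A chain was accepted, or passed, when its contig was productive, carried the high-confidence flag and had at least 2 unique molecular identifiers (UMIs, each marking 1 captured transcript). Cells with a passing kappa (IGK) or lambda (IGL) contig and no passing heavy (IGH) contig are called light-only. Cells with both are called paired, and numbered 3322 in 564Igi and 4773 in WT.

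The study profiled the spleen of 1 heterozygous 564Igi mouse and 1 C57BL/6JRj mouse, the WT. The 564Igi mouse, a B6.129S4(Cg) line, carried the targeted kappa allele Igktm1(Igk564)Tik and the targeted heavy chain allele Ightm1(Igh564)Tik, which hold the rearranged chains of 1 autoreactive antibody. Erythroid cells were removed with Ter-119 from the splenocytes of both mice before capture, and the labels give no age. Of 6 libraries described, the 4 B and T cell V(D)J libraries were analysed and the gene expression libraries were not, so a cell type rests on receptor contigs alone.

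Heavy and light chain genes are assembled during B cell development by V(D)J recombination, the heavy chain before the light chain. Light chain rearrangement normally follows once heavy chain protein is made, and mature B cells need that protein to survive. A cell can use several kappa J segments or go on to lambda in later rounds. The IGH transcript of a naive B cell ends in the IGHM or, by alternative splicing, the IGHD constant region.

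The B cell tables held 20898886 reads and 747499 UMIs in 564Igi and 24740982 reads and 927382 UMIs in WT. Light-only cells contributed 8517 passing light chain UMIs in 564Igi and 56550 in WT. Of the light-only barcodes, 3 of 327 in 564Igi and 11 of 1622 in WT were also called B cells in the other mouse. Each group was 1 mouse, so no difference was tested and no p-value is given. Ranges in parentheses are exact 95% binomial intervals for shares and Newcombe intervals for differences in percentage points. Beside a share of 0, the share that 3 cells would make is given as what it allows, which is not an interval bound. Both cover counting error within 1 mouse only, and reads of amplified transcripts are independent molecules only as far as UMIs separate them.

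The CDR3 sequences of 4 chains recur in the results. The CDR3 is the stretch across the V to J junction that makes each rearrangement recognisable. They are shown 5′ to 3′, with the last 9 bases, on the J segment's side, in capitals.
564Igi light chain, IGKV4-59 to IGKJ5: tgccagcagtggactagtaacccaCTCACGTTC
564Igi heavy chain, IGHV1-53 to IGHJ4: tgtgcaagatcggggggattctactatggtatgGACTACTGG
WT light chain, IGKV8-24 to IGKJ5: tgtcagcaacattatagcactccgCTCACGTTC
WT heavy chain, IGHV1-12 to IGHJ1: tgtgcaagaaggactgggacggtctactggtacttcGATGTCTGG
The 564Igi pair are the candidate knock-in chains, named so because they were the most frequent there, since no label spells out the inserted sequences. The WT light chain was the one found in most WT light-only cells, and the WT heavy chain is that of the WT cell holding most UMIs of this light chain. Both light chains end in the same J bases. In GRCm38.p6 (mm10), Igkv4-59 lies on chromosome 6 at 69438218 to 69438741, Igkv8-24 on chromosome 6 at 70216858 to 70217421 and Igkj5 on chromosome 6 at 70723886 to 70723923. Ighv1-53 lies on chromosome 12 at 115158445 to 115158835 and Ighv1-12 on chromosome 12 at 114615850 to 114616143. All are germline antibody gene segments, joined to an exon only after recombination.

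Light-only cells made up a smaller share of 564Igi than of WT B cells. Among B cells with a passing light chain the share was 8.96% (8.05 to 9.94) of 3649 cells in 564Igi and 25.4% (24.3 to 26.4) of 6395 cells in WT, a difference of -16.4 points (-17.8 to -15.0). The converse, a passing heavy and no passing light chain, was found in 4.29% (3.64 to 5.02) of 3471 564Igi cells with a heavy chain and in 1.06% (0.788 to 1.39) of 4824 WT cells. A missing light chain was thus more frequent in 564Igi than in WT, and a missing heavy chain less frequent. Within 564Igi, cells with the candidate light chain were light-only in 8.58% (282 of 3285), and cells with any other light chain in 12.4% (45 of 364), a difference of -3.78 points (-7.72 to -0.422). Kappa and lambda cells were light-only in 8.99% and 7.95% of cases in 564Igi (320 of 3561 and 7 of 88). In WT they were light-only in 26.1% (24.96 to 27.2) and 17.1% (13.9 to 20.6), so WT lambda cells had an accepted heavy chain more often than WT kappa cells.

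Light-only cells held fewer light chain UMIs than paired cells in both mice. In 564Igi the median was 11 UMIs (quartiles 7 and 17, highest 3762) in light-only cells and 19 (quartiles 12 and 31, highest 15093) in paired cells. In WT it was 29 UMIs (quartiles 16 and 47, highest 222) in light-only cells and 50 (quartiles 31 and 77, highest 18078) in paired cells. The ratio of the medians, light-only over paired, was 0.579 in 564Igi and 0.580 in WT. The distributions overlapped widely, with 80.1% of 564Igi and 78.1% of WT light-only cells below the paired median of their mouse. Sequencing effort per molecule was close between the classes, at a median of 41.4 reads per light chain UMI in light-only and 40.8 in paired 564Igi cells, and of 33.5 and 33.6 in WT. The 564Igi candidate light chain was low in both classes. Cells carrying it had medians of 10 UMIs when light-only and 18 when paired, whereas 564Igi cells with other light chains had 26 and 58.

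**Figure D1:**
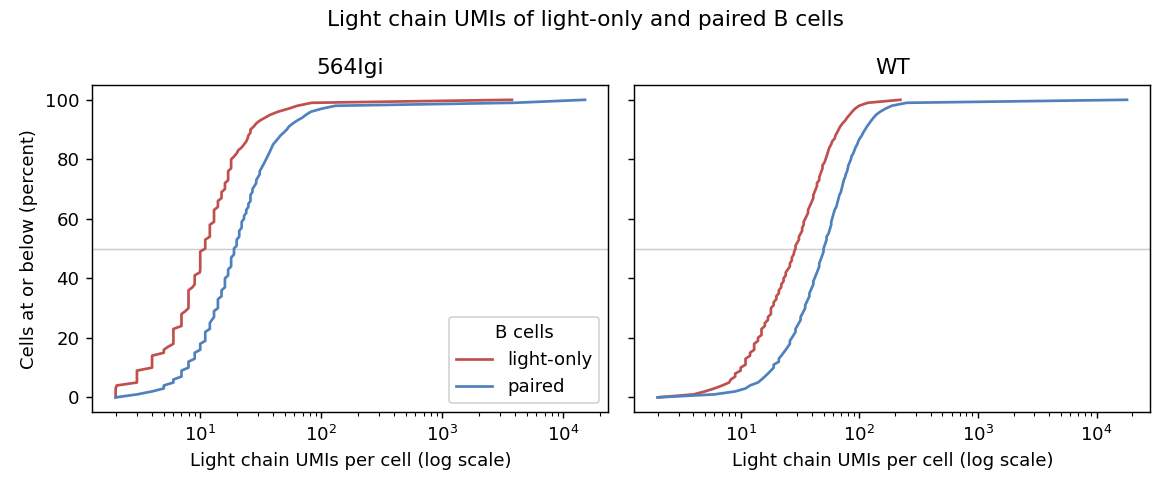
Cumulative share of B cells (percent) by light chain UMIs per cell (log axis), light-only and paired cells of each mouse. Light-only cells lie to the left of paired cells, with medians of 11 against 19 UMIs in 564Igi and 29 against 50 in WT.

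The heavy chain itself was read at similar depth in the paired cells of both mice, with a median of 18 UMIs (quartiles 12 and 26) in 564Igi and 15 (quartiles 10 and 23) in WT. The ratio of light to heavy chain UMIs in a cell had a median of 1.07 in 564Igi, where the chains were nearly even, and 3.26 in WT. Paired 564Igi cells with a light chain other than the candidate had 58 light and 17 heavy chain UMIs at the median, close to the balance in WT. A given number of light chain UMIs therefore came with fewer heavy chain UMIs in WT cells and in these 564Igi cells than in candidate cells.

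In both mice the light-only share was lowest among cells with many light chain UMIs. In 564Igi it was 35.6% of cells with 2 to 4 light chain UMIs, 17.3% with 5 to 9, 9.87% with 10 to 19, 3.73% with 20 to 49 and 3.83% with 50 to 99. In WT it was 51.2%, 56.9%, 48.0%, 29.1% and 15.3% in the same bins, then 5.32% with 100 or more but under 200 and 1.20% (1 of 83) with 200 or more. In 564Igi the last bins held 1 light-only cell of 53 and 1 of 50. From 5 UMIs upward to 99 the exact intervals of the mice did not overlap. The 564Igi cells with other light chains lay, between 10 and 99 UMIs, above candidate cells and below WT. They were light-only in 10 of 18 cells with 5 to 9 UMIs, in 6 of 30 with 10 to 19, in 16.1% (9.81 to 24.2) of 112 with 20 to 49 and in 6.34% (2.94 to 11.7) of 142 with 50 to 99. In the same 4 bins candidate cells were light-only in 15.9%, 9.63%, 2.61% and 0.840% of cases.

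**Figure D2:**
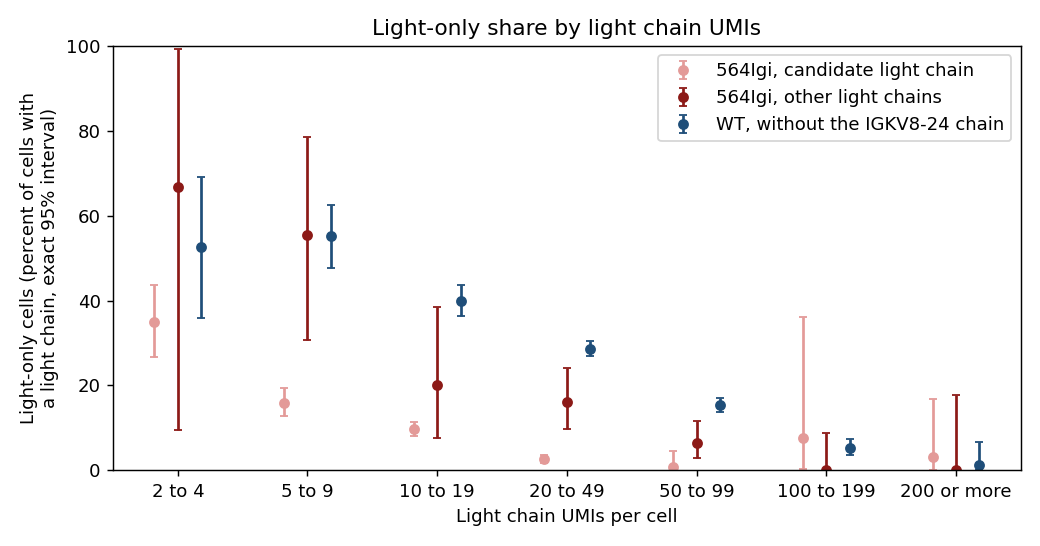
Light-only cells as a percent of B cells with a light chain (points, with exact 95% intervals) in bins of light chain UMIs. Shown are 564Igi cells with and without the candidate light chain and WT cells without the IGKV8-24 to IGKJ5 chain, by the light chain with most UMIs. At 20 to 49 UMIs the shares were 2.61%, 16.1% and 28.6%.

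The mice also differed at a fixed depth. When each cell was thinned to 10 immunoglobulin UMIs and a heavy chain still needed 2, the expected light-only share was 11.7% in 564Igi and 47.5% in WT. Unthinned, the same cells gave 5.46% of 3479 in 564Igi and 23.8% of 6254 in WT, and 170 564Igi and 141 WT cells were too shallow to enter. Thinning acts on both chains, so it removes more heavy chains where the light chain takes the larger part of the UMIs.

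The largest light-only cell of 564Igi held 3762 light chain UMIs of the candidate chain and no IGH contig at all. It was the only light-only cell with at least 1000 immunoglobulin UMIs, against 44 paired 564Igi cells. In WT no light-only cell and 30 paired cells reached that level. The second largest light-only cell of 564Igi had 195 light chain UMIs and the largest of WT had 222, and neither had an IGH contig.

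Absence of an accepted heavy chain did not mean absence of heavy chain sequence. In 564Igi 175 of 327 light-only cells, 53.5% (47.9 to 59.0), held at least 1 IGH contig that did not pass, and in WT 873 of 1622, 53.8% (51.4 to 56.3). Read literally, the description of these cells as lacking a heavy chain holds for 46.5% of them in 564Igi and 46.2% in WT, where no IGH contig was listed. Paired cells also carried further IGH contigs that did not pass, in 52.4% of 564Igi and 39.6% of WT cells. The difference, light-only minus paired, was 1.14 points (-4.69 to 6.91) in 564Igi and 14.3 points (11.4 to 17.1) in WT. In 564Igi cells with other light chains the shares were 53.3% (24 of 45) and 35.7%, a difference of 17.6 points (1.18 to 33.5).

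The kinds of contig differed more than their number. Each cell was placed by its most complete contig that did not pass. Contigs with a V gene and a J gene that were not called productive were found in 15.0% of light-only and 2.74% of paired 564Igi cells, and in 16.5% and 3.65% in WT. Contigs that named a V gene and stopped short of a J gene were found in 23.2% of light-only and 3.73% of paired cells in 564Igi, and in 24.97% and 4.82% in WT. Both kinds were thus several times more frequent in light-only cells, and the intervals of all 4 differences lay above 0. The choice of cells set part of this contrast, since the passing heavy contig of a paired cell is not counted here. How large a part was not tested. J segments without a V gene were less often the most complete contig of light-only cells. They were so in 9.79% of light-only and 24.9% of paired 564Igi cells, and in 8.94% and 20.1% in WT. Cells that also held a V-containing or productive contig that did not pass were placed by it, so these shares leave out cells with both. A bare constant region was the best contig in 2.14% of light-only and 4.64% of paired 564Igi cells, and in 2.16% and 4.30% in WT. A productive contig without the high-confidence flag was the best such contig in 0 of 327 light-only cells of 564Igi, which allows up to 0.917%, and 16.4% of paired cells, and in WT in 0 of 1622, which allows up to 0.185%, and 6.75%. Paired cells held it beside an accepted heavy chain, which light-only cells lack by the choice of cells. How far that choice set this contrast was not tested. In 16 light-only cells of 564Igi (4.89%) and 67 of WT (4.13%) the V part and the J part were listed as separate contigs, against 0.722% and 0.629% of paired cells.

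**Figure D3:**
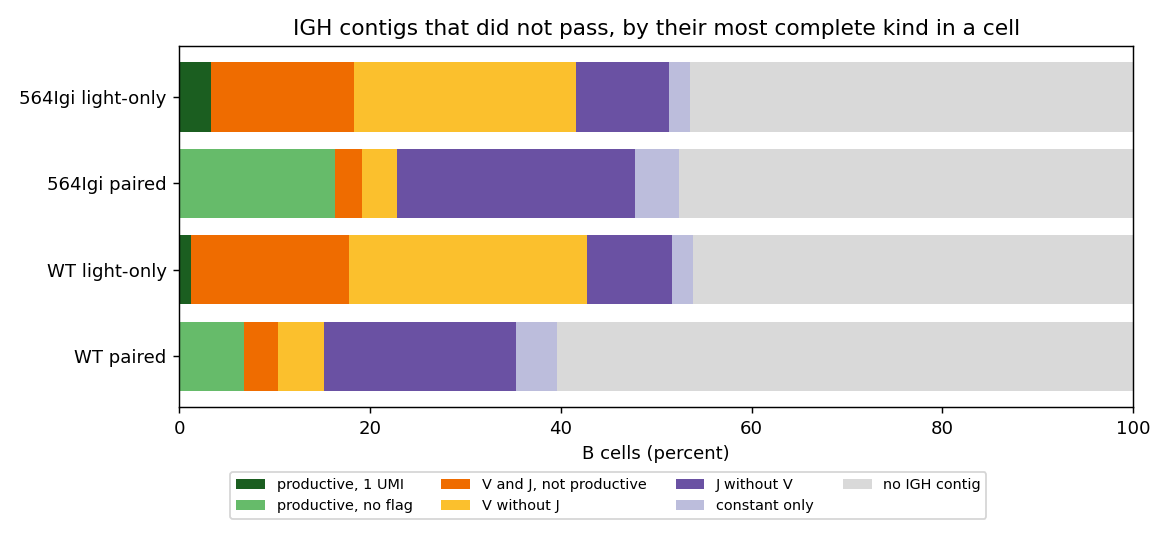
Percent of B cells by the most complete IGH contig that did not pass, in light-only and paired cells of each mouse. V-containing pieces (orange and yellow) filled 38.2% of 564Igi and 41.5% of WT light-only cells, and J without V (purple) was the larger class in paired cells.

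The heavy chain pieces of light-only cells were short. Contigs with V and J that were not called productive had a median length of 467.5 bases in 564Igi (58 contigs) and 458 in WT (283), while passing IGH contigs of paired cells had medians of 683 and 676. Only 18.97% in 564Igi and 10.6% in WT were flagged full length, against 80.8% and 75.4% of the same kind of contig in paired cells. An explicit nonproductive call, as from a frame shift or a stop codon, was made for 4 of 58 in 564Igi (6.90%) and 17 of 283 in WT (6.01%), against 59.6% and 52.3% in paired cells. The remaining contigs had neither a productive nor a nonproductive call. Their depth was modest, at a median of 5 UMIs in 564Igi and 6 in WT. A CDR3 was read in 65.5% of them in 564Igi and 66.4% in WT. Over all light-only cells a heavy CDR3 could be read in a contig that did not pass in 13.8% (10.2 to 17.98) in 564Igi and 12.3% (10.7 to 14.0) in WT. Heavy chain RNA was also read outside B cells, with a passing heavy chain in 14.1% of 564Igi and 0.0613% of WT barcodes called only as T cells, and its part in these contigs was not tested.

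The 2-UMI minimum itself decided few cells. A productive, high-confidence IGH contig of 1 UMI was present in 11 light-only cells of 564Igi (3.36%) and 20 of WT (1.23%). It was present in none of the paired cells, which allows up to 0.0903% of them in 564Igi and 0.0629% in WT. A paired cell could show one only beside its passing heavy chain, so this contrast was largely set by the choice of cells. Just inside the minimum, 18 paired cells of 564Igi (0.542%) and 35 of WT (0.733%) had a heavy chain of exactly 2 UMIs. The light chain UMIs on the 2 sides of the line were close, with medians of 9 in light-only cells at 1 UMI and 10.5 in paired cells at 2 UMIs in 564Igi, and of 26.5 and 27 in WT. A contig that failed in spite of 2 or more UMIs was present in 36.7% of light-only cells in 564Igi and 39.03% in WT.

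Where a constant gene was named in an IGH contig that did not pass, it was almost always of the unswitched classes. In 89 light-only cells of 564Igi it was IGHM in 57 (64.0%), IGHD in 31 (34.8%, 25.04 to 45.7) and IGHG2C, an IgG class gene, in 1. In 360 light-only cells of WT it was IGHM in 182 (50.6%), IGHD in 174 (48.3%, 43.1 to 53.6) and IGHA, the IgA gene, in 4. IGHE, IGHG1, IGHG2B and IGHG3 were named in none of them, which allows up to 3.37% of the 89 and 0.833% of the 360 for each gene. IGHD was read more often in these contigs than in the primary passing heavy chains of paired cells, where it made up 17.4% in 564Igi and 21.6% in WT. Contigs of paired cells that did not pass include productive ones without the high-confidence flag. They named IGHD in 38.0% (35.7 to 40.5) of cases in 564Igi, an interval within that of light-only cells. In WT paired cells they named it in 40.6% (38.2 to 43.1), below light-only cells, with intervals that met to within rounding and did not overlap. Contigs of paired cells that did not pass thus also named IGHD more often than accepted chains did.

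The V genes of the pieces were set beside those of the accepted heavy chains of paired cells. A V gene was named in an IGH contig that did not pass in 136 light-only cells of 564Igi and 693 of WT. Each cell was counted once, by the contig with most UMIs. In 564Igi, 2 of 35 V genes with at least 20 cells had intervals that did not overlap, which is 5.71%. IGHV1-53, the V gene of the candidate heavy chain, was named in 19.9% (13.5 to 27.6) of the 136 light-only cells and in 53.0% (51.2 to 54.7) of paired cells. IGHV1-55 was named in 5.15% and 0.963%. With IGHV1-53 left out of both classes, the share of genes called was 0.0% of 34 and IGHV1-55 was not among them. The most frequent V genes after IGHV1-53 and IGHV1-55 were IGHV1-4, IGHV2-9, IGHV5-2 and IGHV5-17, in 5 light-only cells each. The CDR3 of the candidate heavy chain was found in pieces of 9 of all 327 light-only cells (2.75%). Most light-only cells had no heavy CDR3 read in any piece, so this share is a low count of the chain. Among paired cells, 1692 of 3322 had the candidate as primary heavy chain, and 13.1% held its CDR3 in further contigs that did not pass. Those contigs include productive ones without the high-confidence flag.

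In WT, 13 of 65 V genes had intervals that did not overlap, which is 20%. IGHV1-12 stood out, named in 63 of the 693 light-only cells (9.09%, 7.06 to 11.5) and 0.859% of paired cells. Also higher in the pieces were IGHV1-55 (4.76% of light-only and 2.14% of paired cells), IGHV1-52 (3.03% and 1.28%), IGHV1-61 (1.73% and 0.419%), IGHV5-9-1 (1.59% and 0.419%) and IGHV1-7 (1.15% and 0.272%). Lower were IGHV9-3 (1.59% and 4.38%), IGHV8-8 (1.30% and 3.10%), IGHV6-3 (0.577% and 2.10%), IGHV8-12 (0.577% and 2.03%) and IGHV7-3 (0.144% and 1.09%). IGHV1-15 and IGHV2-9-1 were each named in 0 of the 693, which allows up to 0.433%, against 2.37% and 1.15% of paired cells. Without cells of the IGKV8-24 to IGKJ5 light chain, 10 of 65 V genes (15.4%) had intervals that did not overlap, and IGHV1-12, IGHV8-8 and IGHV7-3 were no longer among them. Besides IGHV1-12 and IGHV1-55, the V genes most often named were IGHV1-26 in 40 light-only cells and IGHV1-64 and IGHV1-80 in 26 each. IGHV1 is a large family of similar genes, so the name given to a partial contig can fall on a near copy, and its part in these differences was not tested.

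Light chain V genes were compared between the 2 classes of WT. Of 66 V genes with at least 20 cells, 2 had intervals that did not overlap, which is 3.03%. IGKV8-24 was used by 10.0% (8.63 to 11.6) of light-only cells and 1.78% (1.42 to 2.20) of paired cells. The lambda gene IGLV1 made up 3.51% (2.67 to 4.53) of light-only and 5.41% (4.78 to 6.09) of paired cells, which is -1.89 points (-2.97 to -0.699). The other V genes most used by WT light-only cells were IGKV10-96, IGKV1-117, IGKV1-135, IGKV1-110, IGKV12-46, IGKV14-111, IGKV19-93 and IGKV6-15, at 6.23% down to 2.59%. None of these 8 had intervals that did not overlap, although the difference for IGKV10-96, 1.47 points (0.174 to 2.89), lay above 0. The chain IGKV8-24 to IGKJ5 was the primary light chain, the one with most UMIs, of 149 WT light-only cells (9.19%, 7.82 to 10.7) and of 35 paired cells (0.733%). Without it IGKV8-24 was used by 0.950% of light-only and 1.06% of paired cells. The call rate was then 1.52%, for IGKV10-96 alone, at 6.86% and 4.79%, and IGLV1 was used by 3.87% and 5.45%, with intervals that overlapped. With each distinct chain counted once, no gene of 33 had intervals that did not overlap.

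The light-only share of this chain lay above that of every other WT light chain in at least 20 cells. Of the 184 WT cells in which it was primary, 80.98% (74.6 to 86.4) were light-only. Over the 81 other WT light chains found in at least 20 cells the light-only share ran between 4.76% and 40.0%, with a median of 22.9%. The next chains by number of light-only cells were IGKV10-96 to IGKJ1 (31 of 114 cells), IGLV1 to IGLJ1 (28 of 149), IGKV14-111 to IGKJ2 (21 of 72) and IGKV1-117 to IGKJ1 (21 of 67).

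**Figure D4:**
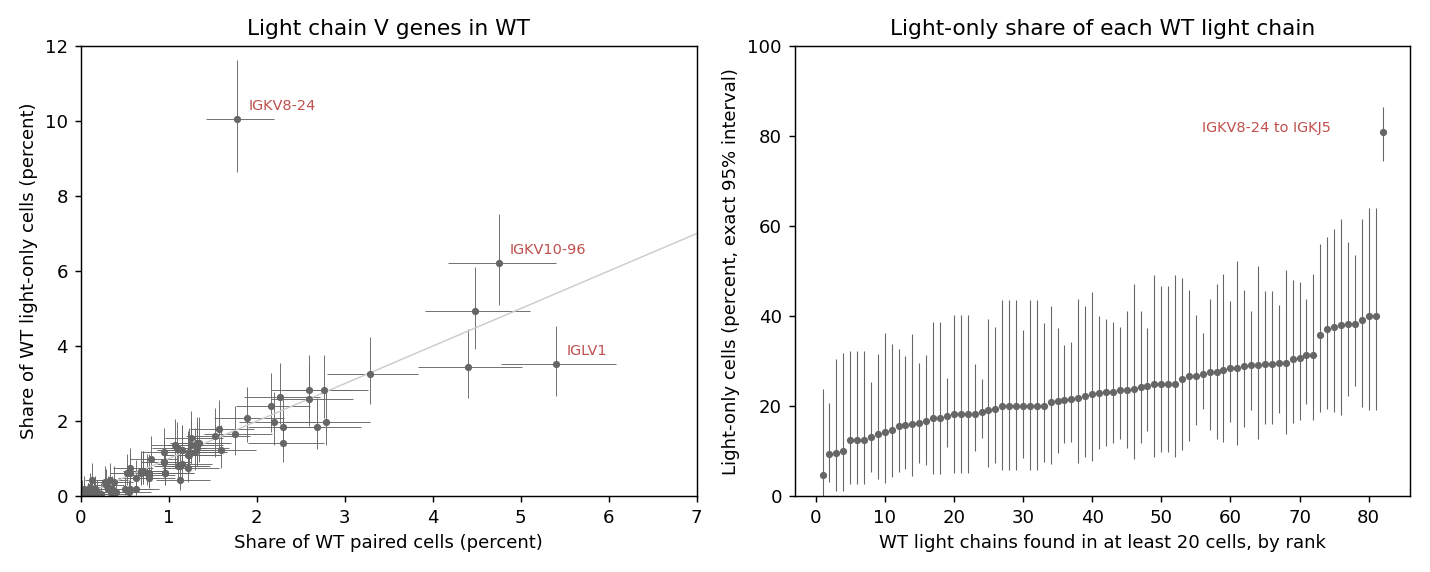
Left, the share of WT light-only cells (vertical, percent) and of WT paired cells (horizontal, percent) using each light chain V gene, with exact 95% intervals and the line of equal shares. Right, the light-only share of each WT light chain found in at least 20 cells, by rank. The IGKV8-24 to IGKJ5 chain stands at 80.98%, above the other 81 chains, which end at 40.0%.

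The same chain was present well beyond light-only cells. One WT paired cell held 11099 light chain UMIs of it together with 12301 UMIs of the IGHV1-12 to IGHJ1 heavy chain, and 7 WT paired cells, this one included, had the same pair as primary chains. Light-only cells with it as primary chain had a median of 13 light chain UMIs and a highest of 56, below the median of 32 in the other WT light-only cells. Of 116 cells with 10 to 19 light chain UMIs and this chain, 112 were light-only. In any contig, it was read in 42 of 3263 WT barcodes called only as T cells (median 5 UMIs, highest 9) and in 982 WT barcodes called in neither table (median 5, highest 12). In the 564Igi mouse it was primary in 0 of 327 light-only cells, which allows up to 0.917%, and in 3 paired cells. The other 28 WT paired cells with it as primary chain combined it with 28 different heavy chains, at a median of 43 light chain UMIs.

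IGHV1-12, the V gene of the heavy chain in that 11099-UMI cell, was named more often in light-only cells with this light chain than in other WT light-only cells. Counted in any IGH contig that did not pass, and not by the one with most UMIs alone, it was named in 55 of the 149 light-only cells with the chain (36.9%, 29.2 to 45.2) and in 15 of the 1473 other WT light-only cells (1.02%, 0.571 to 1.67). In such contigs it was named in 0 of the 35 paired cells with the chain as primary, which allows up to 8.57%. The CDR3 of the heavy chain in the 11099-UMI cell was read in such contigs of 5 of all 1622 WT light-only cells (0.308%). The amount of IGHV1-12 was small. Summed over barcodes with the chain, light-only cells held 3.90 UMIs of IGHV1-12 contigs for every 100 of the light chain, paired cells other than the 11099-UMI cell 2.98, T cell barcodes 1.03 and uncalled barcodes 3.04. The source of this chain in cells other than the 11099-UMI cell was not tested. Without cells that had the chain as primary, the WT light-only share was 23.7% (22.7 to 24.8), and the difference of all 564Igi cells from it -14.8 points (-16.2 to -13.3). Wherever a light chain is left out, only cells with it as primary were dropped, and cells with it as a lesser contig stayed.

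**Figure D5:**
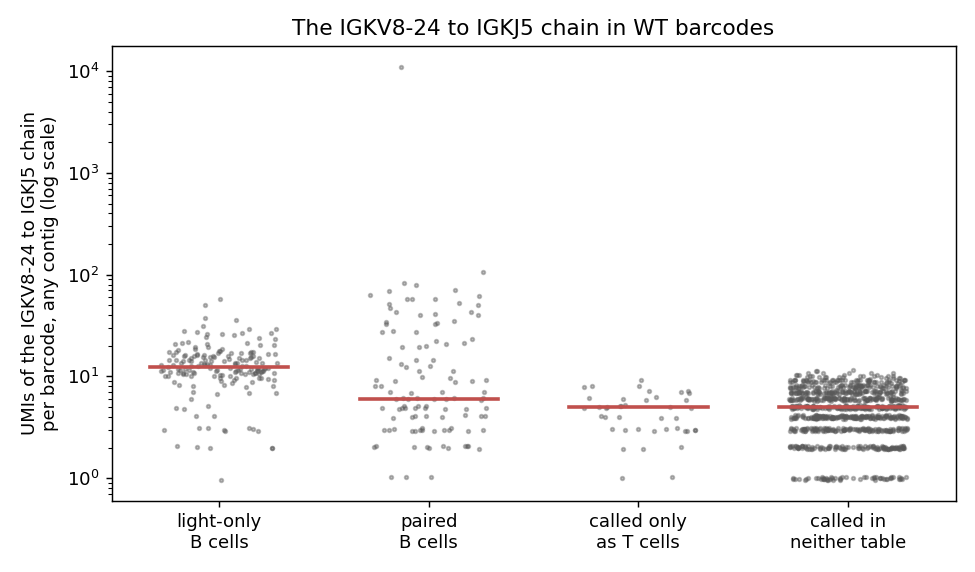
UMIs of the IGKV8-24 to IGKJ5 chain (log axis) in each WT barcode that holds it in any contig, by kind of barcode, with medians as red lines (12.5, 6, 5 and 5). A single paired cell lies at 11099 UMIs, and uncalled barcodes reach 12.

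Light chain RNA was also read outside B cells. In 564Igi a passing light chain was found in 0.831% (0.589 to 1.14) of the 4573 T cell barcodes, with 2 UMIs at the median and 5 at most. Of these 38 barcodes, 37 held the candidate light chain. In WT a passing light chain was found in 1.38% (1.01 to 1.84) of 3263 such barcodes, at a median of 5 and a highest of 9. The IGKV8-24 to IGKJ5 chain was held by 40 of these 45. A passing heavy chain was present in 14.1% (647) of the 564Igi and 0.0613% (2) of the WT T cell barcodes, so heavy chain RNA was read outside B cells far more often in 564Igi. Barcodes called in neither table held a passing light chain in 4.83% (580 of 12010) in 564Igi and 10.9% (1179 of 10780) in WT. Of these, 98.8% and 99.5% had no passing heavy chain. The candidate was held by 516 of the 580 in 564Igi, and the IGKV8-24 to IGKJ5 chain by 927 of the 1179 in WT. In 564Igi these barcodes had 2 light chain UMIs at the median, 4 at the 95th percentile and 9 at most. The 564Igi light-only cells had a 5th percentile of 3 and a lower quartile of 7. In WT the uncalled barcodes had 4 at the median, 9 at the 95th percentile and 30 at most. The 5th percentile of WT light-only cells was 8, so the ranges overlapped in both mice. These barcodes differ from the cells described by the deposited cell call.

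In 564Igi the light chains of light-only cells were led by the candidate. It was primary in 86.2% (82.0 to 89.8) of light-only and 90.4% (89.3 to 91.4) of paired cells, a difference of -4.16 points (-8.49 to -0.462). In any passing light contig it was present in 92.0% and 94.9%. The other 45 light-only cells used V genes in small numbers, led by IGKV6-17 in 6 cells and IGKV4-59 and IGLV1 in 5 each. IGKV6-15 followed in 4, IGKV14-111 in 3 and IGKV1-135, IGKV8-24 and IGLV2 in 2 each. Only 3 V genes had at least 20 cells there, and the share called was 0.0%. The chain of most such cells joined IGKV6-17 to IGKJ2 and was light-only in 5 of 10 cells, at a median of 7 UMIs against 50 when paired.
IGKV6-17 to IGKJ2, 564Igi: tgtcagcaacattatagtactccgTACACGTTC
Light-only cells held 40 distinct primary light chains in 564Igi and 510 in WT. Of these, 23 and 395 were also primary in a paired cell of the same mouse, which covered 94.8% of light-only cells in 564Igi and 92.4% in WT.

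The J segments were compared as well, because kappa rearrangement moves toward IGKJ4 and IGKJ5 as it is repeated. In WT, 43.1% (40.6 to 45.6) of light-only and 37.3% (35.8 to 38.7) of paired kappa chains used IGKJ4 or IGKJ5, a difference of 5.87 points (2.98 to 8.77). IGKJ5 was used by 30.7% and 22.9%, IGKJ1 by 28.8% and 31.4%, IGKJ2 by 28.1% and 31.4% and IGKJ4 by 12.4% and 14.3%. Without the IGKV8-24 to IGKJ5 chain the IGKJ4 or IGKJ5 shares were 37.0% and 36.7%, a difference of 0.266 points (-2.67 to 3.24). In 564Igi the shares were 93.1% (298 of 320) and 96.5% (3129 of 3241), most of them the candidate. Without the candidate they were 42.1% (16 of 38) and 52.9% (126 of 238), and the difference of -10.8 points had an interval of -27.9 to 7.45. IGKJ2 was then the most used segment of light-only cells, at 44.7%, against 29.4% of paired cells, with a difference of 15.3 points (-1.95 to 33.2).

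Lambda chains were less frequent in WT light-only cells. They were primary in 5.36% (4.32 to 6.57) of light-only and 8.84% (8.05 to 9.68) of paired WT cells, a difference of -3.48 points (-4.82 to -2.03). Counted by distinct chains, the difference was -0.103 points (-2.11 to 2.17). In 564Igi they were primary in 2.14% (7 cells) and 2.44% (81 cells), a difference of -0.298 points (-1.70 to 1.98). Within lambda, the interval of each gene's difference between the classes included 0. IGLV1 made up 65.5%, IGLV2 26.4% and IGLV3 8.05% of 87 WT light-only lambda chains, against 61.1%, 26.1% and 12.8% of 422 paired ones. IGLJ1 made up 62.1%, IGLJ2 33.3% and IGLJ3 4.60%, against 52.8%, 39.3% and 7.82%. The 7 lambda chains of 564Igi light-only cells were 5 of IGLV1 and 2 of IGLV2, and 4 used IGLJ1, 2 IGLJ2 and 1 IGLJ3.

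A second passing light chain, with another CDR3, was present in fewer WT light-only than paired cells. The shares were 10.2% (8.74 to 11.7) and 17.4% (16.4 to 18.5), a difference of -7.26 points (-9.07 to -5.36). Within bins of light chain UMIs the 2 classes were closer. At 10 to 19 UMIs a second chain was read in 5.13% of light-only and 3.08% of paired WT cells, at 20 to 49 in 8.34% and 6.18%, a difference of 2.16 points (-0.0815 to 4.63), and at 50 to 99 in 19.2% and 21.4%. In 564Igi the shares were 5.81% (19 of 327) and 5.39% (179 of 3322), a difference of 0.422 points (-2.00 to 3.62). At 20 to 49 UMIs it was read in 8 of 50 light-only cells and in 3.65% of paired 564Igi cells, which is 12.4 points more (3.45 to 25.5). In that bin, cells without the candidate as primary chain were 18 of the 50 light-only cells and 112 of all 1339 cells. Over all bins, all 19 light-only cells with a second chain were among the 45 without the candidate, which is 42.2%. Paired cells without it had a second chain in 49.8% (159 of 319), a difference of -7.62 points (-23.2 to 8.99). A droplet that caught 2 B cells would also show a second light chain, and the part of such droplets was not tested.

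T cell receptor contigs mark the other lymphocyte captured in these libraries. Barcodes called in the T cell table had been left out, so a low share of such contigs there was largely set by the choice of cells. In the mouse's own T cell table any TRA or TRB contig was listed for 4.28% (2.36 to 7.08) of light-only and 2.38% (1.89 to 2.96) of paired 564Igi cells, a difference of 1.90 points (-0.103 to 4.74). In WT it was listed for 2.34% (1.66 to 3.20) and 2.03% (1.65 to 2.47). Passing T cell receptor contigs were present in 1 light-only cell of 564Igi and 4 of WT. In the B cell table, a TRA or TRB contig was listed for 4.59% (2.59 to 7.45) of light-only and 6.50% (5.69 to 7.39) of paired 564Igi cells, a difference of -1.91 points (-4.10 to 1.06). In WT it was listed there for 2.47% (1.77 to 3.34) and 1.66% (1.31 to 2.06), a difference of 0.811 points (0.00425 to 1.75).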

How the data were processed

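B and T cell receptor contig tables from 10x 5′ libraries of 1 564Igi and 1 WT spleen were used. Cell Ranger 3.0.2 and mm10 are named, without roles, in the submitters' processing notes. The deposited tables hold, per the file headers, unnormalized read and UMI counts per contig, contig lengths, flags, gene names and CDR3 bases as the authors left them. The rules behind the cell calls and flags are not stated there.

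Barcodes called in both tables (373 in 564Igi, 345 in WT) were left out as possible doublets, and no doublet caller was run. The primary chain had most UMIs, with ties taken in file order. Thinning used the hypergeometric expectation. A V gene was called when it had at least 20 cells over both classes and exact 95% intervals that did not overlap. Named genes were up to 8 called genes in each direction, the 10 V genes and 5 chains most used, the 5 V genes most named in IGH contigs that did not pass, and all J, lambda and constant genes. Contigs the authors list as Multi, which mix chain types, were counted only where stated. A share of 0 is given with that of 3 cells.

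Members and lists were chosen with earlier results of these data known, and the IGKV8-24 to IGKJ5 chain, its heavy chain and cells without it were examined after the data had been seen. Gene positions come from a RefSeq table of GRCm38.p6. Alternatives changed the UMI minimum (1 or 5), the high-confidence flag, doubly called barcodes, the heavy chain call, a minimum of 10 light chain UMIs, thinning to 20 UMIs, cells with 1 light chain, 2 mismatches to the candidate, and distinct chains as the unit. Computation used SciPy 1.17.1 and NumPy 2.4.6 with pandas 2.3.3 under Python 3.11.15, and figures matplotlib 3.10.9.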

Additional observations from a re-analysis of the deposited data

Results flagged for a closer look

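The difference between light-only and paired cells ran in opposite directions in the 2 mice for 3 measures, and the difference between the mice was not tested. A second light chain differed by 0.422 points in 564Igi, with an interval of -2.00 to 3.62 that included 0, and by -7.26 points in WT, where the difference was 2.05 points at 10 to 19 light chain UMIs and 2.16 at 20 to 49. IGKJ4 or IGKJ5 use differed by -3.42 points in 564Igi and 5.87 points in WT, or 0.266 points in WT without the IGKV8-24 to IGKJ5 chain. Sharing the primary light chain with a cell of at least 1000 immunoglobulin UMIs differed by -5.13 points in 564Igi, at 87.1% of light-only and 92.3% of paired cells, and by 7.14 points in WT, at 16.5% and 9.38%. Without the IGKV8-24 to IGKJ5 chain the WT difference was -0.649 points (-2.23 to 1.06). Without the candidate chain the 564Igi difference was -9.23 points (-16.2 to 3.02), and both of these intervals included 0.

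Signal of heavy and light chains also appeared outside the contigs and cells compared. Of light-only cells without any IGH contig, 13.2% (20 of 152) in 564Igi and 11.9% (89 of 749) in WT had a contig listed as of mixed chain type that named an IGH constant gene, at a median of 1 UMI. Such contigs were more frequent in paired cells, at 29.9% against 15.0% of all light-only cells in 564Igi and 19.6% against 14.9% in WT. Most of these contigs, counted over all light-only cells, carried a T cell receptor beta J gene, 36 of 54 in 564Igi and 172 of 267 in WT. With them counted, neither an IGH contig nor an IGH constant gene was listed in 40.4% of 564Igi and 40.7% of WT light-only cells. Barcodes called in neither table held the most frequent light chain of light-only cells in 1917 cases in 564Igi, at a median of 1 UMI, and in 982 cases in WT, at a median of 5.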

How the results depend on the processing

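Of 73 values under other settings, 44 stayed within the counting interval or 1.5 times the count of the value reported, 28 moved and 1 changed sign. The light-only share was lower in 564Igi than in WT under every setting tried. It was 10.2% in 564Igi and 28.3% in WT (difference -18.1 points) at a 5-UMI minimum, 6.33% in 564Igi and 24.2% in WT (-17.9) in cells with at least 10 light chain UMIs, and 4.17% in 564Igi and 11.7% in WT (-7.55) where any IGH contig counted as a heavy chain. It was 12.4% in 564Igi and 23.7% in WT (-11.4) without each mouse's most frequent light-only light chain. Thinning to 20 UMIs gave 3.29% in 564Igi and 26.5% in WT (-23.2). Without the candidate chain, 45 light-only 564Igi cells remained, and 86.7% of them lay below the paired median. The difference, light-only minus paired, was then 17.6 points (1.18 to 33.5) for IGH contigs that did not pass. It was 6.07 (-0.804 to 18.5) for T cell receptor contigs and -9.84 (-20.3 to 4.83) for lambda. For IGKJ4 or IGKJ5 it was -10.8 (-27.9 to 7.45), and for a second light chain -7.62 (-23.2 to 8.99). Without the IGKV8-24 to IGKJ5 chain, the WT difference was 0.266 points for IGKJ4 or IGKJ5. For chains shared with cells of at least 1000 UMIs it was -0.649, the sign change. Both intervals included 0, and 1 V gene was called in place of 2. Counting distinct chains gave lambda differences of 6.62 points in 564Igi and -0.103 in WT and an IGKJ4 or IGKJ5 difference of 1.31 in WT. The intervals of these differences included 0, and 0 V genes were called in WT. With exactly 1 light contig, 75.4% of WT light-only cells lay below the paired median. The cause of these changes was not tested. No paired analysis was possible because each group was 1 mouse and the labels give no replicate numbers. With 1 mouse a group, a difference between mice cannot be told apart from one between captures or animals.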
